A study of Rattus norvegicus with 18 samples.

Results

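Metallothioneins and zinc transporters were described in rat soleus muscle through 5 genes, Mt1a (written Mt1 in the array annotation), Mt2A, Mt3, Slc30a1 and Slc39a14, of 14217 genes that had at least 1 probe set listing a single gene. Their 6 probe sets were taken by gene symbol, and the probe set with the highest mean over 18 arrays stood for each gene. The main probe sets were thus selected on measured mean levels, and the genes were chosen by the already known rise of Mt2A in the right limb of sham rats. The right against left values of Mt2A are therefore a description, and the adjusted p-values beside them show where the fit over all probe sets placed the gene without lending independent support. The same holds for Mt2A in comparisons of SNX with sham rats that use the sham right limbs.

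Male rats had either 5/6 nephrectomy (SNX), a surgical model of chronic kidney disease, or a sham operation, and 8 weeks later the right femoral artery was ligated and resected in all of them. Soleus was taken from both limbs 24 hours after that, which gave 5 SNX right, 5 SNX left, 4 sham right and 4 sham left arrays, with both limbs of each of 9 rats. Every rat carried the ligation, so the left limb of a ligated rat, and not muscle of an unoperated rat, is the reference for the right limb. The sample labels call both limbs of SNX rats ischemic and both limbs of sham rats nonischemic, whereas the design text places ischemia in the right limb of all rats, so groups are named by operation and side. No strain, age or array batch is used here.

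Metallothioneins are small cysteine-rich proteins that bind zinc, copper and cadmium, and their genes are switched on by zinc through the transcription factor MTF-1, which binds metal response elements, and also by glucocorticoids and by IL-6 acting through STAT3. Mt1 and Mt2A are the widely expressed forms, and Mt3 is best known from brain. Slc30a1 (ZnT1) exports zinc across the plasma membrane and is itself a target of MTF-1, whereas Slc39a14 (ZIP14) brings zinc, iron and manganese into cells and is induced by IL-6 in liver.

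The 250 bases before the annotated start of 4 of the 5 genes are shown because MTF-1 acts through such elements, read in the direction of the gene from RefSeq on build GRCr8. Slc39a14 had no sequence in the table used. Capitals mark metal response element cores, TGCACNC or TGCGCNC, searched on both strands.
Mt1, chr19:10832976-10833225, minus strand: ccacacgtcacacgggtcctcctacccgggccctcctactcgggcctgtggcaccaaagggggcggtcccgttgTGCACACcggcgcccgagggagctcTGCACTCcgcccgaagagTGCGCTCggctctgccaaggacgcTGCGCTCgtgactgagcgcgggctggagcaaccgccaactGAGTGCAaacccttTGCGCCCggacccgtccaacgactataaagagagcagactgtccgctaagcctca
Mt2A, chr19:10838709-10838958, minus strand: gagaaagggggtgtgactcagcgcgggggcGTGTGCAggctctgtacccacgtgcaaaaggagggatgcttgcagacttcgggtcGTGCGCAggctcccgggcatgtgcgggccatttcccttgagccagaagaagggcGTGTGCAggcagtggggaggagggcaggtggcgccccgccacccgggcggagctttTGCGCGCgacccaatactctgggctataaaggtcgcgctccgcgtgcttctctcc
Mt3, chr19:10856081-10856330, minus strand: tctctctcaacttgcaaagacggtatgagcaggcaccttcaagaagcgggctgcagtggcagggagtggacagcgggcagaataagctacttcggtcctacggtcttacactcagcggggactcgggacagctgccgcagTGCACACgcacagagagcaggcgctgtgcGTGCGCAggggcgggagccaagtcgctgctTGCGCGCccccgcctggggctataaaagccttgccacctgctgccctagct
Slc30a1, chr13:106021769-106022018, plus strand: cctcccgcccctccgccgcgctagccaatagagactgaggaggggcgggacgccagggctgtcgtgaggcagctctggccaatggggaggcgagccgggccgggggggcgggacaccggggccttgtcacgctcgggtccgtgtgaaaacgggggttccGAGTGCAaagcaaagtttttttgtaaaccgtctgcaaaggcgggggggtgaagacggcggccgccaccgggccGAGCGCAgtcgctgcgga
The window held 6 cores for Mt1, 4 for Mt2A, 3 for Mt3 and 2 for Slc30a1. None of these matches overlapped another core or a match to TGACNNNGC, the core of the antioxidant response element. Of 27457 promoters of the same length, 21.2% held at least 1 metal response element core, 5.13% at least 2, 1.25% at least 3, 0.277% at least 4 and 0.0219% at least 6. In Mt2A the core nearest to the start began 55 bases before it, as did the nearest one in Mt1. TGACNNNGC, searched on both strands, was present once in Mt1, Mt2A and Slc30a1 and in 10.2% of all promoters, and TTCNNNGAA, a STAT site, was in none of the 4 windows and in 7.52% of all. TATAAA on the gene's strand was present in the 3 metallothionein windows, not in that of Slc30a1, and in 8.38% of all. These are letter matches and say nothing on binding in this muscle. On chromosome 19 the annotation lists Mt1, Mt2A, Mt3 and Mt4 next to each other in that order, with Nup93 before Mt1.

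The deposited values are on a log2 scale, and the medians of the 18 arrays lay between 3.22 and 3.37. Mean correlation with the other arrays was 0.987 to 0.992 for 16 arrays, against 0.978 for the right limb of sham rat 17 and 0.980 for that of SNX rat 49, so results are also given without these arrays. The mean of 5 slow fibre markers ranged from 10.99 to 14.95 over arrays, and that of 4 fast fibre markers from 15.16 to 15.59. Myh4, the myosin of the fastest fibres, of which rat soleus is known to hold few, averaged 15.34. Because whole muscle was measured, more RNA per cell and more cells of a type cannot be told apart.

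**Figure D1:**
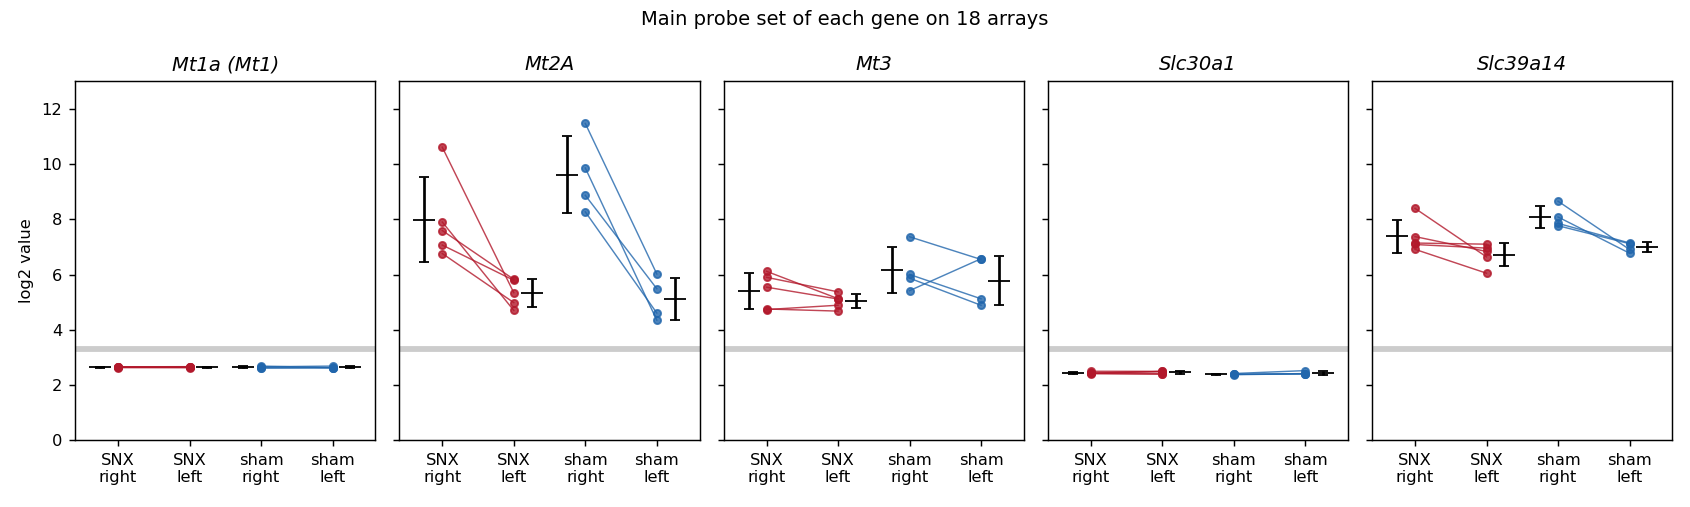
Log2 value (y axis) of the main probe set of each gene on 18 arrays, in groups from SNX right to sham left. Points are arrays, lines join the limbs of a rat, black bars are group mean ± SD, and the grey band spans the array medians (3.22 to 3.37). Mt2A is higher on the right in every rat, and Mt1a and Slc30a1 lie below the band on every array.

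Mt2A (probe set 1388271_at) was the member with the widest spread over arrays. In SNX right limbs it stood at 7.07, 7.59, 6.76, 7.90 and 10.61, against 5.79, 5.83, 4.98, 4.70 and 5.34 in SNX left limbs (rats 12, 18, 20, 37 and 49 in each). In sham right limbs it stood at 9.85, 8.87, 8.27 and 11.47, against 4.35, 5.49, 4.61 and 6.02 in sham left limbs (rats 11, 13, 15 and 17 in each). Right and left limbs did not overlap in either operation, and rats 17 and 49 gave the highest value of their groups. The order of the group means was sham right (9.61 ± 1.40, SD, n = 4), SNX right (7.99 ± 1.53, n = 5), SNX left (5.33 ± 0.49, n = 5) and sham left (5.12 ± 0.77, n = 4). SNX right and sham right overlapped, and so did SNX left and sham left.

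The right minus left log2 difference of Mt2A in sham rats was 4.50 ± 0.77 (SE), a 22.6-fold higher value that was rank 5 among the rises of 31042 probe sets, with a limma adjusted p of 0.0415 and of 0.0072 with the rat as a block. In SNX rats the difference was 2.66 ± 0.69, 6.30-fold, with an adjusted p of 0.287 and of 0.0825 with the block, so it did not pass. Averaged over both operations it was 3.58 ± 0.52, 11.9-fold, with an adjusted p of 0.0044 (95% CI 2.47 to 4.68). Every rat had the higher value on the right: by 1.27, 1.77, 1.78, 3.20 and 5.26 in SNX rats 12, 18, 20, 37 and 49, and by 5.51, 3.38, 3.66 and 5.45 in sham rats 11, 13, 15 and 17. Among all probe sets 2.85% were higher on the right in all 9 rats. The smallest sham change thus exceeded 4 of the 5 SNX changes, and SNX rat 49 lay within the range of the sham rats.

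When the right arrays of rats 17 (sham) and 49 (SNX) were left out, the Mt2A difference was 2.00 ± 0.41 in SNX rats (adjusted p = 0.158, and 0.0435 with the rat as a block, where 0.226% of all probe sets were called higher) and 3.88 ± 0.46 in sham rats (adjusted p = 0.0040, where 0.432% were). The sham call without the block held in 1 of the 9 fits that each left out a rat, the one without rat 49, with adjusted p from 0.00817 to 0.238. With the block it held in 8 of 9 and was lost without rat 11 (adjusted p = 0.0542). A fit of only the sham arrays also lost it (adjusted p = 0.112). The averaged call held in 9 of 9.

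Slc39a14, the zinc importer, was also higher on the right, by a smaller step. In SNX right limbs its main probe set (1373984_at) read 7.14, 6.91, 7.09, 7.37 and 8.39, against 7.10, 6.05, 6.96, 6.83 and 6.64 in SNX left limbs, in the rat order given above. In sham right limbs it read 8.08, 7.85, 7.77 and 8.65, against 6.77, 7.14, 7.12 and 6.91 in sham left limbs. The limbs did not overlap in sham rats and overlapped in SNX rats, where rat 49 alone was above 8 on the right. Averaged over operations the difference was 0.88 ± 0.20, 1.85-fold (limma adjusted p = 0.0334, and 0.0089 with the rat as a block), and the right limb was higher in 9 of 9 rats, by 0.04 to 1.76. It was 0.67 ± 0.27 in SNX rats (adjusted p = 0.539) and 1.10 ± 0.30 in sham rats (adjusted p = 0.144). With the rat as a random block the sham difference passed (adjusted p = 0.0450), and with the rat as a fixed term it did not (0.150). Of the 9 fits that each left out a rat, 1 called it without the block and 1 with the random block, in both cases the fit without rat 49 (adjusted p = 0.0413 and 0.00954). The averaged call held in 4 of the 9 fits that each left out a rat (without rats 12, 18, 20 or 49; adjusted p 0.0377 to 0.119 over all 9), in 9 of 9 with the block, and when the right arrays of rats 17 and 49 were left out (0.66 ± 0.14, adjusted p = 0.0272, where 1.43% of all probe sets were called higher). It missed the threshold with the rat as a fixed term (adjusted p = 0.0531, where 1.78% passed higher) and as the mean of both its probe sets (0.0536). In sham rats without those arrays and with the block, Mt2A and Slc39a14 were both called, as were 1.86% of all probe sets.

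The order of the Slc39a14 group means was sham right (8.09 ± 0.40), SNX right (7.38 ± 0.59), sham left (6.98 ± 0.18) and SNX left (6.72 ± 0.41), and each neighbouring pair overlapped. The other probe set of Slc39a14 was near the array medians, at 3.49 to 3.61 on 16 arrays, with 4.17 in the right limb of SNX rat 49 and 4.12 in that of sham rat 17. Its averaged difference was 0.15 ± 0.09 (adjusted p = 0.379).

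**Figure D2:**
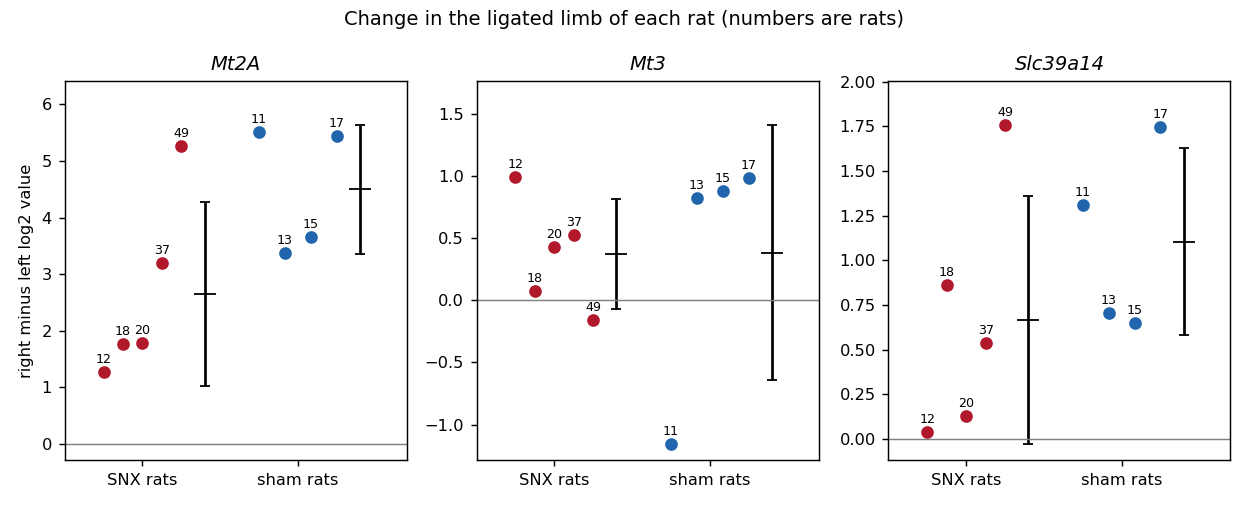
Right minus left log2 difference (y axis, own scale per panel) of Mt2A, Mt3 and Slc39a14 in each rat, SNX rats at the left and sham rats at the right of each panel. Points are rats with their numbers, black bars are mean ± SD, and the grey line marks no change. Mt2A and Slc39a14 are above 0 in 9 of 9 rats, and Mt3 in 7 of 9.

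Mt3 was measured well above the array medians but was called in no comparison. In SNX right limbs it read 6.12, 4.75, 5.54, 5.90 and 4.73, against 5.13, 4.68, 5.11, 5.37 and 4.89 in SNX left limbs. In sham right limbs it read 5.42, 7.37, 6.00 and 5.87, against 6.57, 6.55, 5.12 and 4.89 in sham left limbs. Right and left limbs overlapped in both operations, SNX and sham rats overlapped in each limb, and in sham rat 11 and SNX rat 49 the right limb was the lower one. The order of its means was sham right (6.16 ± 0.84), sham left (5.78 ± 0.90), SNX right (5.41 ± 0.64) and SNX left (5.04 ± 0.26). The averaged right minus left difference was 0.38 ± 0.31 (adjusted p = 0.504, 95% CI -0.29 to 1.04).

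The single-gene probe sets of Mt1a and Slc30a1 stayed below every array median. Mt1a read 2.62 to 2.69 and Slc30a1 2.38 to 2.53 over all 18 arrays, so no direction is given for these genes. A further probe set, 1371237_a_at, is annotated to 3 genes, Mt1 among them, and was therefore not assigned to a gene. It stood at 8.21, 8.69, 7.58, 8.94 and 12.25 in SNX right limbs, against 6.46, 5.38, 5.56, 5.05 and 5.48 in SNX left limbs. In sham right limbs it stood at 11.76, 10.72, 9.26 and 13.61, against 4.47, 7.27, 6.15 and 6.11 in sham left limbs. The limbs did not overlap in either operation, and the averaged difference was 4.44 ± 0.65 (adjusted p = 0.00455). Across 18 arrays it correlated with Mt2A at r = 0.979, a description over arrays that share rats and groups.

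Counted over the 5 main probe sets, 1 member was called higher on the right in sham rats (Mt2A), where 0.113% of all probe sets were, and 2 with the rat as a block (Mt2A and Slc39a14), where 0.999% were. In SNX rats none was called without or with the block, where 0.0419% and 0.232% of all probe sets were called higher, although 2459 probe sets, and 2 members (Mt2A and Slc39a14), had an unadjusted p under 0.05. In the average 2 members were called (Mt2A and Slc39a14), where 1.55% of all were called higher without the block and 4.56% with it. Of the right limbs that did not overlap the left, Mt2A and Slc39a14 were among 3.24% of all probe sets in sham rats, and Mt2A was among 1.38% in SNX rats. The contrast that brought Mt2A to notice is part of these counts, so nothing is read from its own call. Slc39a14 was also chosen with earlier results of these data known, so its calls are a description as well.

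Whether kidney disease altered these genes was addressed by SNX against sham rats in each limb. For Mt2A the right limb comparison uses the sham values that brought the gene to notice, so it is a description. In the right limb Mt2A was at 7.99 ± 1.53 in SNX rats and 9.61 ± 1.40 in sham rats, a difference of -1.63 ± 0.73 (SE, 95% CI -3.19 to -0.06, adjusted p = 0.498). Slc39a14 differed there by -0.71 ± 0.28 (adjusted p = 0.498) and Mt3 by -0.75 ± 0.44 (adjusted p = 0.498). None of the 5 members passed, and 0% of all probe sets did by limma, although 9.25% of probe sets and 2 members (Mt2A and Slc39a14) had an unadjusted p under 0.05. In the left limb the differences were 0.21 ± 0.73 for Mt2A, -0.27 ± 0.28 for Slc39a14 and -0.75 ± 0.44 for Mt3, with adjusted p of 0.981, 0.894 and 0.870. Again none passed, where 0.00644% of all probe sets did. No member had an unadjusted p under 0.05, where 6.25% of all probe sets had.

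The difference between the SNX and sham changes was fitted directly as an interaction. The sham change that brought Mt2A to notice enters it, so the Mt2A values below are a description, with or without the arrays of rats 17 and 49. For Mt2A the right minus left change in SNX rats minus that in sham rats was -1.84 ± 1.04 (95% CI -4.06 to 0.37). It was -0.44 ± 0.40 for Slc39a14 and -0.01 ± 0.62 for Mt3. No member and 0% of all probe sets passed (437 probe sets and no member had an unadjusted p under 0.05), and the adjusted p of Mt2A was 0.976 with the rat as a block. Without the right arrays of rats 17 and 49 the Mt2A value was -1.88 ± 0.62, and -1.98 ± 0.56 with the block as well, over 3 SE from 0 but with adjusted p of 0.9998 and 0.637 over all probe sets.

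The changes of Mt2A and Slc39a14 ran together over the 9 rats, with SNX and sham rats pooled. Both mean changes were larger in sham rats (4.50 against 2.66 for Mt2A, 1.10 against 0.67 for Slc39a14). The permutations did not keep the operations apart, so this group difference enters r and its p-value. The sham changes that brought Mt2A to notice are also among the values. Pearson's r of the right minus left differences was 0.883 (exact permutation p = 0.0036, two-sided, 0.0144 after adjustment over 4 relations) and Spearman's rho was 0.75 (exact permutation p = 0.0255, adjusted 0.0865). Without rats 11 and 12, the farthest from the median Mt2A change, r was 0.854 (exact permutation p = 0.0325, adjusted 0.0667), so the adjusted value no longer passed over 7 rats. For Mt3 r was -0.407 and became 0.172 without those rats, so that relation rests on them. Slc30a1 gave r = -0.788 (exact permutation, adjusted p = 0.0261) and Mt1a r = 0.351, but both come from probe sets below the array medians.

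By pattern over 18 arrays, the named genes most like Mt2A were Tgif1 (r = 0.963), a transcriptional repressor, Zfand2a (0.961), an arsenite-inducible zinc finger protein, Ifitm1 (0.960), an interferon-induced membrane protein, Ccl7 (0.955), a monocyte chemokine, and Sat1 (0.954), the polyamine acetyltransferase. Slc39a14 followed at 0.871, rank 191, and Mt3 at 0.121. These arrays share rats and groups, so the coefficients describe the pattern only. Tgif1, Zfand2a, Ifitm1, Ccl7 and Sat1 were picked by likeness to Mt2A over the same arrays. Mt2A itself was chosen for its rise in the right limb of sham rats. The right minus left differences of these genes are therefore a description, and their adjusted p-values lend no independent support. Averaged over operations they were 1.78 ± 0.33 for Tgif1, 1.35 ± 0.27 for Zfand2a and 1.89 ± 0.36 for Ifitm1. Those of Ccl7 and Sat1 were 4.48 ± 0.71 and 1.72 ± 0.24. The limma adjusted p-values were 0.0138, 0.0198, 0.0165, 0.00707 and 0.00306, in that order.

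None of the other measured zinc transporters rose as much as Mt2A. The averaged difference of Slc30a7 (1.08) was nevertheless larger than that of Slc39a14 (0.88). Of the 9 other Slc30 exporters 8 were measured, 3 of them no brighter on average than the highest array median, and the median averaged difference was -0.021 over all 8 and 0.20 over the 5 brighter ones, beside -0.016 over all probe sets. None was called without the block, where 1.55% of all probe sets were called higher. With it 2 were, where 4.56% of all were: Slc30a7 at 1.08 (adjusted p = 0.0595 without and 0.0183 with the block) and Slc30a5 at 0.20 (0.111 and 0.0422), both of which load zinc into the secretory pathway. Of 13 other Slc39 importers 11 were measured, 4 of them that dim, with a median of 0.27 over all 11 and 0.43 over the 7 brighter ones. None was called without the block, and 2 were with it, against the same 1.55% and 4.56% of all probe sets: Slc39a10 at 0.73 (0.0724 and 0.0238) and Slc39a7, which releases zinc from the endoplasmic reticulum, at 0.48 (0.0913 and 0.0303). When the right arrays of rats 17 and 49 were left out, Slc30a7 was called without the block (0.73, limma adjusted p = 0.0281). There 1.43% of all probe sets were called higher. Slc30a5 (limma adjusted p = 0.290), Slc39a10 (0.173) and Slc39a7 (0.112) were not called in that fit.

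**Figure D3:**
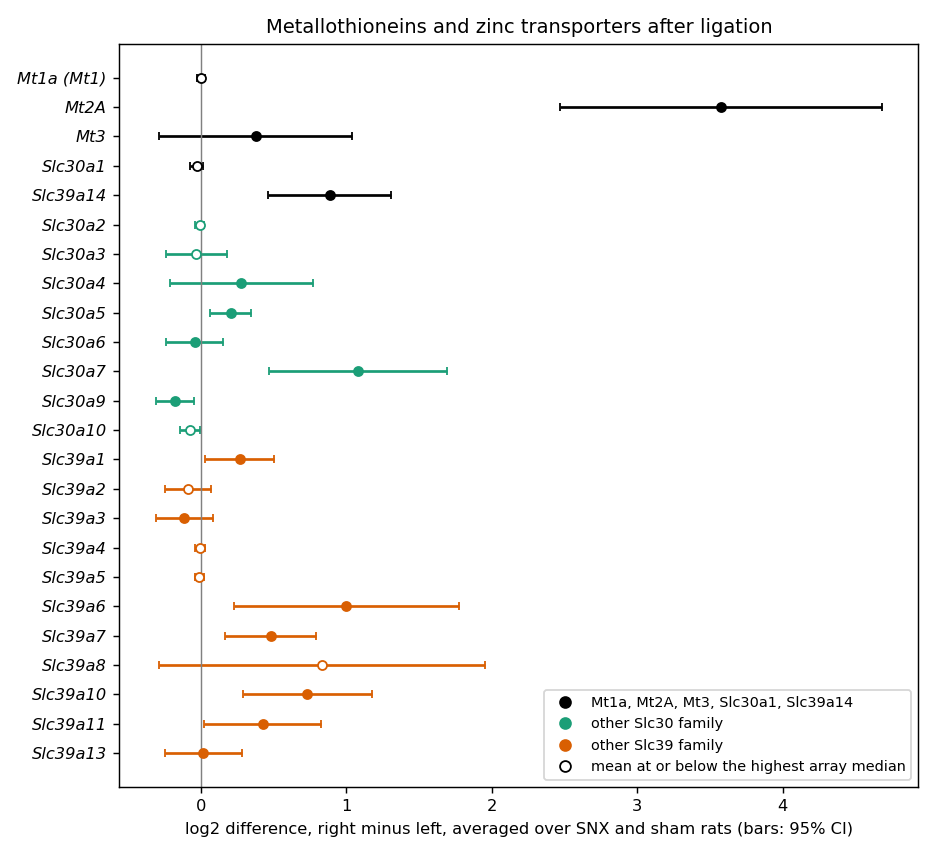
Averaged right minus left log2 difference (x axis) with its 95% CI for the 5 genes (black) and the other measured Slc30 (green) and Slc39 (orange) transporters. Open points have a mean no higher than the highest array median. Mt2A lies at 3.58, apart from the other genes, of which Slc30a7 is next at 1.08.

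Metal regulation genes and known inducers were listed as well, with these data already described. Of 12 measured metal genes none was called without the block. With it Slc31a1, the copper importer, was called higher (0.47, adjusted p = 0.0700 without and 0.0291 with the block) and Slc40a1, the iron exporter ferroportin, lower (-0.73, 0.0574 and 0.0222), as were 4.48% of all probe sets. Mtf1, encoding MTF-1 itself, differed by -0.48 ± 0.15 in sham rats (adjusted p = 0.212). Of 7 measured genes of IL-6 type signalling, 4 were no brighter on average than the highest array median. In the average 2 of the 7 were called higher, where 1.55% of all probe sets were. Stat3, the signal transducer, rose by 1.25 ± 0.22 (adjusted p = 0.0126) and Il6st, its receptor chain gp130, by 0.47 ± 0.10 (adjusted p = 0.0235). Il6 itself averaged 2.79 over 18 arrays, below every array median, so its difference is not read as a change. Its mean in sham right limbs was above the highest array median (3.37). It was at 2.48 ± 0.08 in SNX right limbs and 3.96 ± 1.90 in sham right limbs, a difference of -1.48 ± 0.57 (adjusted p = 0.498). Without the right arrays of rats 17 and 49 that difference was -0.57 (limma adjusted p = 0.0952). Of 6 glucocorticoid pathway genes none was called and 1 was above 0, with a median of -0.14.

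Markers of other cell types were read beside Mt2A. The mean of 10 macrophage markers ranged from 5.48 to 7.96 in SNX right limbs, against 5.08 to 5.72 in SNX left limbs. It ranged from 6.21 to 8.63 in sham right limbs, against 5.76 to 6.56 in sham left limbs. In SNX rat 20 it was lower on the right, at 5.48 against 5.72 on the left. All 10 were above 0 in the averaged comparison, 1 was called without the block (Cd14, 2.36 ± 0.51, adjusted p = 0.0290) and 6 with it, where 1.55% and 4.56% of all probe sets were called higher, and none was called in either operation alone. The highest means were those of rats 17 and 49, which also had the highest Mt2A. Without their right arrays the means on the right were 5.48 to 6.56 in SNX rats and 6.21 to 7.06 in sham rats, while Mt2A there was 6.76 to 7.90 and 8.27 to 9.85. The mean of 5 neutrophil markers, of which Csf3r, Cxcr2 and Fcgr3a averaged no more than the highest array median, ranged from 3.21 to 4.42 in SNX right limbs, against 3.18 to 3.61 in SNX left limbs, and from 3.39 to 5.30 in sham right limbs, against 3.22 to 4.54 in sham left limbs. Of 4 endothelial markers 3 were above 0 in the average and 1 was below. Without the block 2 were called higher, where 1.55% of all probe sets were: Kdr (0.85 ± 0.15, adjusted p = 0.0104) and Pecam1 (0.34 ± 0.08, adjusted p = 0.0421). The mean of the 4 endothelial markers ranged from 7.39 to 7.72 in SNX right limbs, against 7.07 to 7.62 in SNX left limbs, and from 7.65 to 8.46 in sham right limbs, against 7.32 to 7.87 in sham left limbs. Of 5 fibroblast markers 5 were above 0 and none was called, with a mean of 10.93 to 11.57 in SNX right limbs, against 10.03 to 11.10 in SNX left limbs, and of 10.99 to 12.11 in sham right limbs, against 11.02 to 11.84 in sham left limbs. In SNX against sham rats, 10 of 10 macrophage markers were below 0 in the left limb (median -1.02) and in the right (-0.67). Below 0 were also 4 of 4 endothelial markers in each limb. Of 5 fibroblast markers 5 were below 0 on the left and 4 on the right, and of 5 neutrophil markers 3 and 4. The median over all probe sets was 0.015 on the left and 0.029 on the right, and none of these markers was called. Of 2 measured Schwann cell markers, Sox10 averaged no more than the highest array median. Their mean was 3.39 to 5.89 in SNX right limbs and 3.69 to 4.12 in SNX left limbs. In sham rats it was 4.67 to 6.02 on the right and 3.68 to 6.30 on the left. The mean of 4 adipocyte markers was 5.33 to 6.45 in SNX right limbs and 5.21 to 6.19 in SNX left limbs. It was 5.93 to 7.74 in sham right limbs and 6.31 to 7.87 in sham left limbs. The part of these cell types in the results of Mt2A and the other members was not tested.

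**Figure D4:**
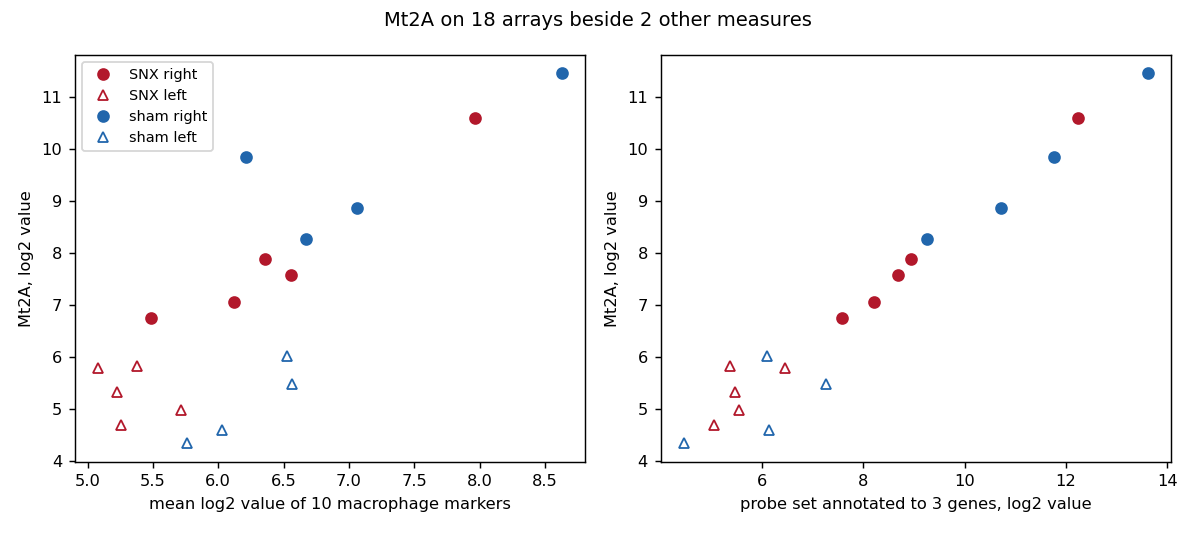
Log2 value of Mt2A (y axis) on 18 arrays against the mean log2 value of 10 macrophage markers (left panel) and against the probe set annotated to 3 genes (right panel). Circles are right limbs and triangles left limbs, SNX in red and sham in blue. In the left panel the right limbs of sham rat 17 and SNX rat 49 have the highest marker means and the highest Mt2A. In the right panel the arrays fall near a line (r = 0.979).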

How the data were processed

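Soleus RNA of 9 rats was measured on 18 Affymetrix arrays from 2 micrograms of total RNA each, per the labels' protocols. The authors deposited log2 values, and RMA, GCRMA and Partek are named per the submitters' processing notes, with no role or version. Values were used as deposited. Of 31099 probe sets 57 controls were left out, and 31042 were tested with limma 3.58.1 (R 4.3.3), with 1 mean per group, 14 residual degrees of freedom, Benjamini-Hochberg adjustment over all probe sets and a threshold of 0.05, after a check on data simulated without any correlation between the limbs of a rat. Of these, 20826 list 1 gene, 436 several and 9780 none. No scanner files were used here, so background and saturation are unknown, and the number of arrays limits the precision. The rat was an alternative block, random (correlation 0.297) or fixed. Limbs of 1 rat carry 1 number in the labels, and the deviations of left and right arrays from their group means correlated above 0.1 in 7 of 9 rats. The genes named are the 5 members, the called genes or the lowest 2 p-values of each list, and the 5 genes most like Mt2A. Members and lists were chosen with earlier results of these data known.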

Additional observations from a re-analysis of the deposited data

Results flagged for a closer look

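Of 24 groups of 4 or 5 arrays tested for a value far from the others, 5 were picked out, where chance gives about 1 in 20. The 2 values of the dimmer Slc39a14 probe set came from the arrays that stand apart: the right limb of SNX rat 49 at 4.17 (nearest other 3.61) and that of sham rat 17 at 4.12 (nearest other 3.56). The remaining 3 lie below every array median: Slc30a1 in the right limb of SNX rat 18 at 2.50 (nearest 2.44), Slc30a1 in the left limb of sham rat 11 at 2.53 (nearest 2.42) and Mt1a in the left limb of sham rat 11 at 2.69 (nearest 2.63). A signal outside the single-gene probe sets came from 1371237_a_at, annotated to 3 genes, whose averaged right minus left difference was 4.44.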

How the results depend on the processing

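The count of members called in sham rats was 1 without a block. It was 2 with the rat as a random replicate block, 0 in a fit of only the sham groups, where Mt2A had an adjusted p of 0.112, and 2 without the right arrays of rats 17 and 49 with the block. Leaving out each rat gave 0 to 2. In SNX rats it was 0, and 1 without those arrays with the block. In the average it was 2, and 1 with the rat as a fixed term, 1 with the mean of all probe sets of a gene, and 1 to 2 leaving out each rat. The other comparisons had 0 under every alternative run. The Mt3 difference of changes, -0.01, was 0.062 without both arrays, 0.15 with the block as well, and -0.52 to 0.19 leaving out each rat. That of Mt2A between SNX and sham left limbs was -0.042 to 0.52. The Mt2A and Slc39a14 correlation was 0.75 by Spearman, 0.85 without the 2 farthest rats and 0.80 without rats 17 and 49, with adjusted exact permutation p of 0.0865, 0.0667 and 0.0770, and that with Mt3 was 0.17 without the 2 farthest rats. The causes were not tested. Fits with the rat as a fixed term were not run for SNX against sham, and correlations within an operation were not run with under 6 rats. The arrays limit what can be seen of Mt1a and Slc30a1, which lay below the array medians.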
